A study of Mus musculus with 10 samples.

Results

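The clustered replication-dependent histone genes were taken as the protein-coding genes of the deposited table whose names begin with Hist1h to Hist4h followed by H1, H2A, H2B, H3 or H4. They numbered 67 of the 54532 genes in the table, of which 22046 were protein-coding. The 67 genes comprised 6 of the linker histone H1, 18 of H2A, 18 of H2B, 12 of H3 and 13 of H4. Of the 67, 17 (25.4%) were above 0 in all 10 lungs, compared with 15000 of all 22046 protein-coding genes (68.0%).

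The lungs came from wild-type C57/BL6 pups, male or female, and were collected at P14. The IncPBF group (increased pulmonary blood flow, 5 lungs) had a fistula made by microsurgery at P7, with a needle passed from the abdominal aorta into the inferior vena cava. The sham group (5 lungs) had the same anaesthesia and laparotomy without the puncture. The labels give no litter, date of surgery or sex for a lung, and do not say that each lung came from another pup, so the p-values measure the spread between these samples.

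Nucleosomes consist of DNA wound around an octamer of the core histones H2A, H2B, H3 and H4, and H1 binds the DNA between nucleosomes. Cells make most of their core histones during S phase from gene clusters, whose mRNAs typically have no introns and end in a conserved stem-loop instead of a poly(A) tail. SLBP binds the stem-loop, and the transcript is cut just after it with the help of the U7 snRNP. Replacement histones such as H3.3 and H2A.Z are encoded by genes outside the clusters, and many of their mRNAs, though not all, are polyadenylated in all phases of the cell cycle. Some clustered genes also give polyadenylated mRNAs, mainly in cells that have stopped dividing.

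Transcripts of the clustered genes in GENCODE M21 (GRCm38) were searched for the stem-loop on their own strand. A match had a stem of 6 bases that starts with GG, a loop of 4 bases that starts with TT, and the exact complement of the stem, 16 bases in all. It was found in 44 of the 67 genes (65.7%), against 151 of 21951 protein-coding genes with a transcript (0.688%). Only annotated transcripts were searched. Genes without a match included Hist1h4k (312 bases), Hist1h2bn (381 bases) and Hist1h3i (411 bases), whose annotation may not hold the whole 3′ end. This was not tested. The sequences below show the bases that the search left free, and are those of the leading H1, H2A, H3 and H4 genes, of a short H4 gene and of an H3 gene with another loop. They are written 5′ to 3′ as DNA, and the capitals mark the stem and loop.

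Hist1h1c (H1, chr13:23739507-23739532, plus strand): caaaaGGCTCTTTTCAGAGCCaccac
Hist3h2a (H2A, chr11:58955167-58955192, plus strand): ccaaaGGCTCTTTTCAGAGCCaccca
Hist2h3c2 (H3, chr3:96238480-96238505, minus strand): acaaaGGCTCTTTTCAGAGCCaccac
Hist1h4i (H4, chr13:22040961-22040986, minus strand): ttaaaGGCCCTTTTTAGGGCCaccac
Hist1h4m (H4, chr13:21812124-21812147, plus strand): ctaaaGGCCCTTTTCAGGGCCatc
Hist1h3c (H3, chr13:23745042-23745067, minus strand): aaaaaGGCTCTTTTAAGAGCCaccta

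The form of Hist1h1c was the most frequent and stood in 26 genes, 3 of H1, 10 of H2A, 8 of H2B and 5 of H3. Of these 26 genes, 11 were above 0 in all lungs. The form of Hist1h4m stood in 7 genes, all of H4, and no H4 gene had the form of Hist1h1c. The form of Hist1h3c stood in 6 genes (1 of H1, 2 of H2B and 3 of H3), and none of the 6 was above 0 in all lungs. Over all 67 genes the share was 25.4%, and whether the form bears on detection was not tested.

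The annotated transcripts ran on past the stem-loop by unequal lengths. More than 100 bases followed it in 22 genes, of which 13 were above 0 in all lungs and 6 had a mean of at least 0.5 FPKM (fragments per kilobase of gene length, divided by a library size). In the other 22 genes, 100 bases or fewer followed, and 2 were above 0 in all lungs and 2 reached 0.5 FPKM. A longer transcript collects more fragments at the same FPKM, which by itself raises the share above 0. A poly(A) signal (AATAAA or ATTAAA, own strand) within the last 50 bases of a transcript was found in 17 of the 67 genes, against 80.6% of protein-coding genes. This search, too, depends on where the annotated transcripts end. The median of the mean FPKM was 0.170 in those 17 genes and 0.0817 in the other 50. The stretches from the signal, in capitals, towards the transcript end are shown for the leading genes that have one. The last bases of the Hist3h2a transcript are left off.

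Hist1h1c (chr13:23740340-23740367, plus strand): ctAATAAAaagcgtttagttttcattca
Hist2h2be (chr3:96223715-96223738, plus strand): ttAATAAAgttaccgattagtttc
Hist3h2a (chr11:58956795-58956824, plus strand): ccAATAAAataagagtacgtgtataacata

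In Hist1h1c, 840 bases of the transcript followed the stem-loop, and in Hist3h2a 1643 bases. No stem-loop match was in the annotated transcripts of Hist2h2be or of Hist1h2bc, the gene with the highest level, and no poly(A) signal was in the last 50 bases of the Hist1h2bc transcript. The 1 annotated transcript of Hist1h2bc has 2 exons, so for this gene the absences hold for that spliced form only.

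**Figure D1:**
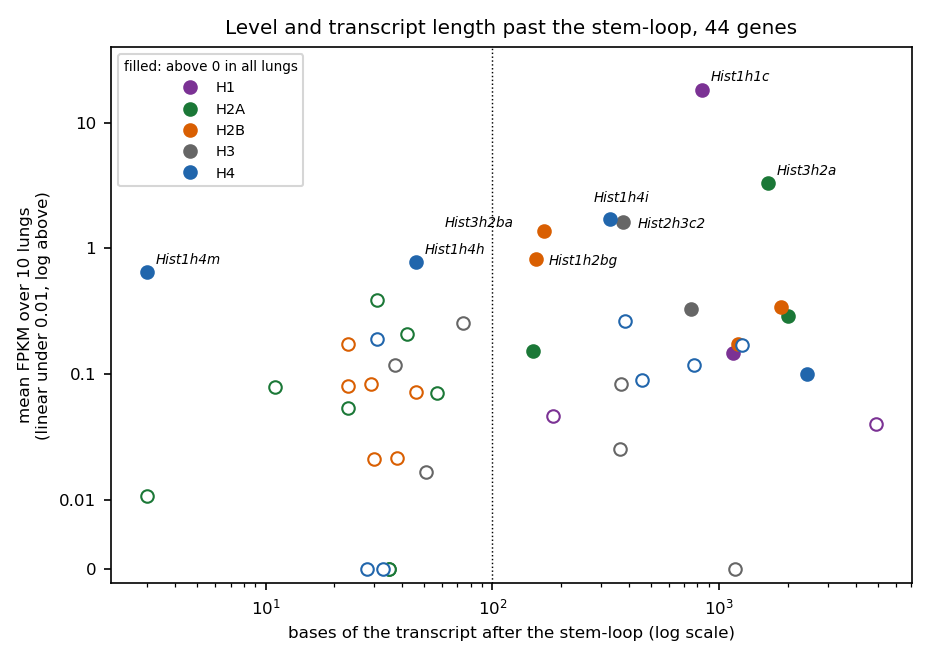
Mean FPKM over the 10 lungs (y axis, linear under 0.01 and logarithmic above) of the 44 genes with a stem-loop, against the number of transcript bases after it (x axis, logarithmic). Filled points are genes above 0 in all lungs, colours are families, and the dotted line is at 100 bases. Of the filled points, 13 lie to the right of the line and 2 to the left.

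The sequenced depth was similar in both groups. The fragments on genes, recovered from FPKM and gene length, ran from 16103423 to 20318525 per IncPBF lung and from 18171494 to 19400575 per sham lung, and 1 fragment on 1 kb was worth 0.0482 to 0.0580 FPKM. Limits drawn from fragment counts hold for counting error alone, because PCR copies of a molecule were not marked. Genes of alveolar type 1 cells (AT1), AT2 and endothelial cells were expressed in all lungs. Of these, 8 of 8, 5 of 8 and 5 of 8 fell in IncPBF (limma, adjusted p under 0.05), and 1 of the 8 endothelial genes rose. With the log2 Xist level in the model, 0 of 8 in each list passed. In that model 741 of all 15388 genes passed, against 4970 without it. The median log2 fold changes of the lists were then -0.34, -0.42 and -0.33, against -0.43, -0.46 and -0.33. Xist was at 52.4 to 66.5 FPKM in IncPBF lungs 2 to 5 and at 0.0770 or less in IncPBF lung 1 and the sham lungs, and Ddx3y was the reverse, so that group and sex-linked expression can hardly be told apart. In bulk RNA, fewer cells of a type and less RNA per cell cannot be told apart either.

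Most clustered histone genes were close to the limit of detection. At 0 in all lungs were 9 genes (13.4%, against 18.3% of protein-coding genes), and 41 were above 0 in 1 to 9 lungs. In 30 genes no lung had more than 3 fragments. A mean of 0.5 FPKM was reached by 10 genes (14.9%, against 59.5% of protein-coding genes). By family, genes above 0 in all lungs were 2 of 6 for H1, 3 of 18 for H2A, 6 of 18 for H2B, 2 of 12 for H3 and 4 of 13 for H4. Among the 18 genes longer than 1000 bases, 11 were above 0 in all lungs, and among the 49 shorter genes, 6.

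The genes lie on 4 chromosomes. The Hist1 genes on chromosome 13 numbered 54, and 12 of them were above 0 in all lungs. Split where neighbours were more than 100000 bases apart, the stretch at chr13:23531050-23764406 held 29 genes, 10 of them above 0 in all lungs, while chr13:21715763-21837530 held 18 genes, of which only Hist1h4m was. The Hist2 genes on chromosome 3 (chr3:96219865-96270132) numbered 10, with 2 above 0 in all lungs and 5 at 0 in every lung. Each of these 5 overlaps another annotated gene, as do Hist2h2ab and Hist2h2ac, while Hist2h2be, Hist2h3c2 and Hist2h4 overlap none. Whether the way reads were counted gave these zeros was not tested. Both Hist3 genes on chromosome 11 and the single Hist4 gene on chromosome 6, Hist4h4, were above 0 in all lungs.

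Near-identical copies limit what a count for one of these genes means. Over 50% of the windows of 50 bases were shared with transcripts of other genes in 32 of the 67 genes, so that the way reads with several matches were counted, not given in the sources used here, could change their values. In Hist2h2aa2 and Hist2h3c1 every window was shared, and both were listed at 0. Of the further Hist2 genes at 0, Hist2h2aa1 had 89.4% of its windows shared, Hist2h3b 79.7% and Hist2h2bb 53.6%. Hist2h3c2, above 0 in all lungs, had 63.5% shared. A gene on the same strand overlapped 7 genes, and a gene on the other strand 21. Of the testis-expressed genes, Hist1h2aa and Hist1h2ba were at 0 in all lungs, where 3 fragments would amount to 0.370 to 0.446 FPKM and 0.376 to 0.453 FPKM. Hist1h1t, the testis H1, was above 0 in 5 lungs, with no more than 2 fragments in a lung.

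**Figure D2:**
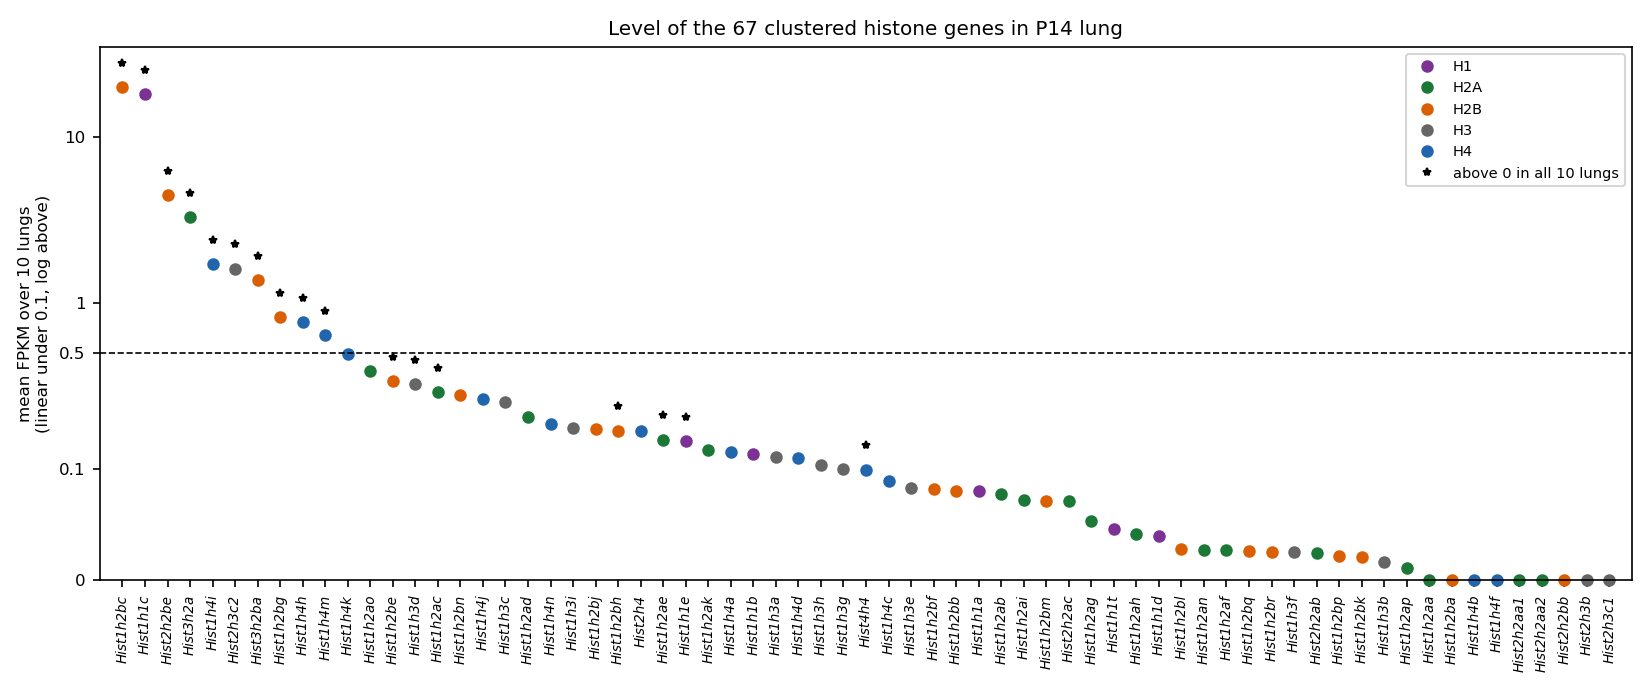
Mean FPKM over the 10 lungs (y axis, linear under 0.1 and logarithmic above) of each of the 67 genes, ranked and coloured by family. Stars mark the 17 genes above 0 in all lungs, and the dashed line is the minimum of 0.5 FPKM for testing, passed by 10 genes.

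A few genes held nearly all of the signal. Hist1h2bc (mean 20.1 FPKM), Hist1h1c (18.3 FPKM), Hist2h2be (4.50 FPKM) and Hist3h2a (3.31 FPKM) had 86.0% of the 15345 fragments on the 67 genes. Hist1h2bc was above Hist1h1c in 8 of the 10 lungs, so their order did not hold in every lung. Hist1h1c was above Hist2h2be, and Hist2h2be above Hist3h2a, in 10 of 10 lungs. From Hist1h4i downwards, neighbours in the order changed places from lung to lung, Hist1h4i being above Hist2h3c2 in 6 of 10 lungs.

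The sum over the 67 genes did not separate the groups. Per 1000000 of the library size behind the FPKM, it was 87.4, 81.3, 72.5, 78.9 and 82.5 fragments in IncPBF lungs 1 to 5. In sham lungs 1 to 5 it was 85.6, 95.7, 82.8, 76.2 and 78.3. On this scale the highest sum was in a sham lung and the lowest in an IncPBF lung, and the groups overlapped. The library size was 1.02 to 1.07 times the fragments on genes in IncPBF lungs and 0.958 to 1.03 times in sham lungs. It thus lowers the IncPBF sums relative to sham, and the small difference between the means leans on this choice. The means were 80.5 ± 5.44 and 83.7 ± 7.65 fragments (SD, n = 5 each). The sums of the H1, H2A, H2B, H3 and H4 genes overlapped between the groups as well, with log2 ratios of IncPBF to sham of -0.06, 0.02, -0.07, -0.15 and 0.09. Of the 5481 H1 fragments 5335 were on Hist1h1c, and of the 1585 H2A fragments 1328 were on Hist3h2a, so these sums largely repeat single genes. The sum of the 63 genes ranked below the top 4 was 10.9 to 12.5 in IncPBF and 10.4 to 12.3 in sham (log2 ratio 0.06).

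The comparison of IncPBF with sham was tested for the 10 genes with a mean of at least 0.5 FPKM. None passed an adjusted p of 0.05 (limma on log2(FPKM + 0.1), Benjamini-Hochberg over 15388 genes), whereas 32.3% of all genes tested did. At an unadjusted p of 0.05, 2 of the 10 passed in limma, against 43.2% of all genes, and 0 of the 10 in limma-voom on the recovered fragments. The groups were separated in 0 of the 10 genes, against 23.2% of all genes. The log2 fold changes were above 0 in 4 genes and under 0 in 6. Their median was -0.03, against 0.01 over all genes tested, and the median absolute value was 0.19, against 0.20.

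For the linker histones, only Hist1h1c, which encodes H1.2, reached the minimum. Its level was 18.2, 18.1, 16.6, 16.8 and 19.2 FPKM in IncPBF lungs 1 to 5 and 21.1, 22.0, 18.4, 16.7 and 15.8 FPKM in sham lungs 1 to 5. The IncPBF values lay within the range of the sham values. The log2 fold change was -0.07 (SE 0.09, adjusted p = 0.598 by limma), with a 95% interval from -0.27 to 0.13.

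For H2A, Hist3h2a was the gene with the highest level. It was at 3.76, 3.36, 2.60, 3.16 and 3.39 FPKM in IncPBF lungs 1 to 5 and at 3.06, 3.86, 3.24, 3.56 and 3.08 FPKM in sham lungs 1 to 5, with IncPBF lung 3 the lowest of all. The log2 fold change was -0.05 (SE 0.10, adjusted p = 0.746 by limma; 95% interval -0.28 to 0.18). Hist3h2a overlaps Trim17 on the same strand and Gm44313 on the other, so its fragments may include those of these genes.

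For H2B, Hist1h2bc was at 22.2, 20.4, 17.4, 20.1 and 19.5 FPKM in IncPBF lungs 1 to 5. In sham lungs 1 to 5 it was at 18.7, 25.2, 18.4, 16.6 and 22.2 FPKM, so both the lowest and the highest value were from sham lungs. The log2 fold change was -0.01 (SE 0.11, adjusted p = 0.954 by limma; 95% interval -0.25 to 0.23). Hist2h2be was at 4.86, 3.95, 3.35, 4.49 and 4.41 FPKM in IncPBF lungs 1 to 5 and at 5.10, 4.46, 5.64, 4.93 and 3.86 FPKM in sham lungs 1 to 5. The ranges overlapped, and the log2 fold change of -0.18 (SE 0.12, adjusted p = 0.260 by limma) had a 95% interval from -0.44 to 0.08. None of the 50-base windows of Hist2h2be was shared with another gene. Hist3h2ba and Hist1h2bg, described here after their values were seen, ranged from 0.705 to 2.70 and from 0.750 to 1.09 FPKM in IncPBF, and from 0.468 to 2.25 and from 0.429 to 1.03 FPKM in sham. Their log2 fold changes were 0.09 (adjusted p = 0.886 by limma) and 0.20 (adjusted p = 0.494).

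For H3, Hist2h3c2 was at 1.27, 1.41, 1.22, 1.87 and 1.18 FPKM in IncPBF lungs 1 to 5 and at 1.97, 2.55, 1.35, 1.18 and 2.20 FPKM in sham lungs 1 to 5. Sham lungs 1, 2 and 5 were above every IncPBF lung, and sham lung 4 was as low as the lowest IncPBF lung. The log2 fold change was -0.35 (SE 0.21, adjusted p = 0.221 by limma; 95% interval -0.81 to 0.10). Windows of 50 bases shared with other genes made up 63.5% of its transcript.

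The H4 genes, which encode the same core histone, held the only 2 of the 10 genes tested with an unadjusted p under 0.05 by limma. These lay in opposite directions, and 1 of them, Hist1h4m, reached the minimum for testing only through its sham values. Hist1h4i was at 1.57, 2.20, 2.75, 1.28 and 2.39 FPKM in IncPBF lungs 1 to 5, from 22, 30, 37, 16 and 36 fragments. In sham lungs 1 to 5 it was at 1.15, 1.39, 1.68, 1.22 and 1.58 FPKM, from 15, 19, 23, 17 and 20 fragments. IncPBF lungs 2, 3 and 5 were above every sham lung, while IncPBF lungs 1 and 4 were within the sham range. The log2 fold change was 0.47 (SE 0.20, adjusted p = 0.0919 by limma), and the exact permutation test gave p = 0.0794 (two-sided, 252 assignments, smallest possible 0.00794). With a lung left out, the log2 fold change ran from 0.35 to 0.62. Of these fits only the one without IncPBF lung 4 passed (0.62, adjusted p = 0.0253 by limma). With the log2 Xist level in the model it was 0.16 (adjusted p = 0.827 by limma).

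Hist1h4m, the gene just above the minimum level for testing (mean 0.646 FPKM), was at 0.515, 0.398, 0.673, 0.432 and 0.240 FPKM in IncPBF lungs 1 to 5. In sham lungs 1 to 5 it was at 0.693, 0.396, 1.19, 0.781 and 1.14 FPKM, and only sham lung 2 fell within the IncPBF range. The mean was 0.452 FPKM in IncPBF, under the minimum of 0.5 FPKM, and 0.840 FPKM in sham. These values rest on 2 to 5 fragments per IncPBF lung and 3 to 9 per sham lung, and 89.8% of its 50-base windows are shared with other genes. The log2 fold change was -0.74 (SE 0.31, adjusted p = 0.0906 by limma, exact permutation p = 0.0635, two-sided). With a lung left out it ran from -0.95 to -0.58, and only the fit without sham lung 2 passed (-0.95, adjusted p = 0.0291 by limma). Hist1h4h, described after its values were seen, ranged from 0.220 to 1.36 FPKM in IncPBF and from 0.339 to 1.45 FPKM in sham (log2 fold change 0.28, adjusted p = 0.659 by limma). Just under the minimum, Hist1h4k had a mean of 0.497 FPKM and was at 0 in 1 lung of each group.

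**Figure D3:**
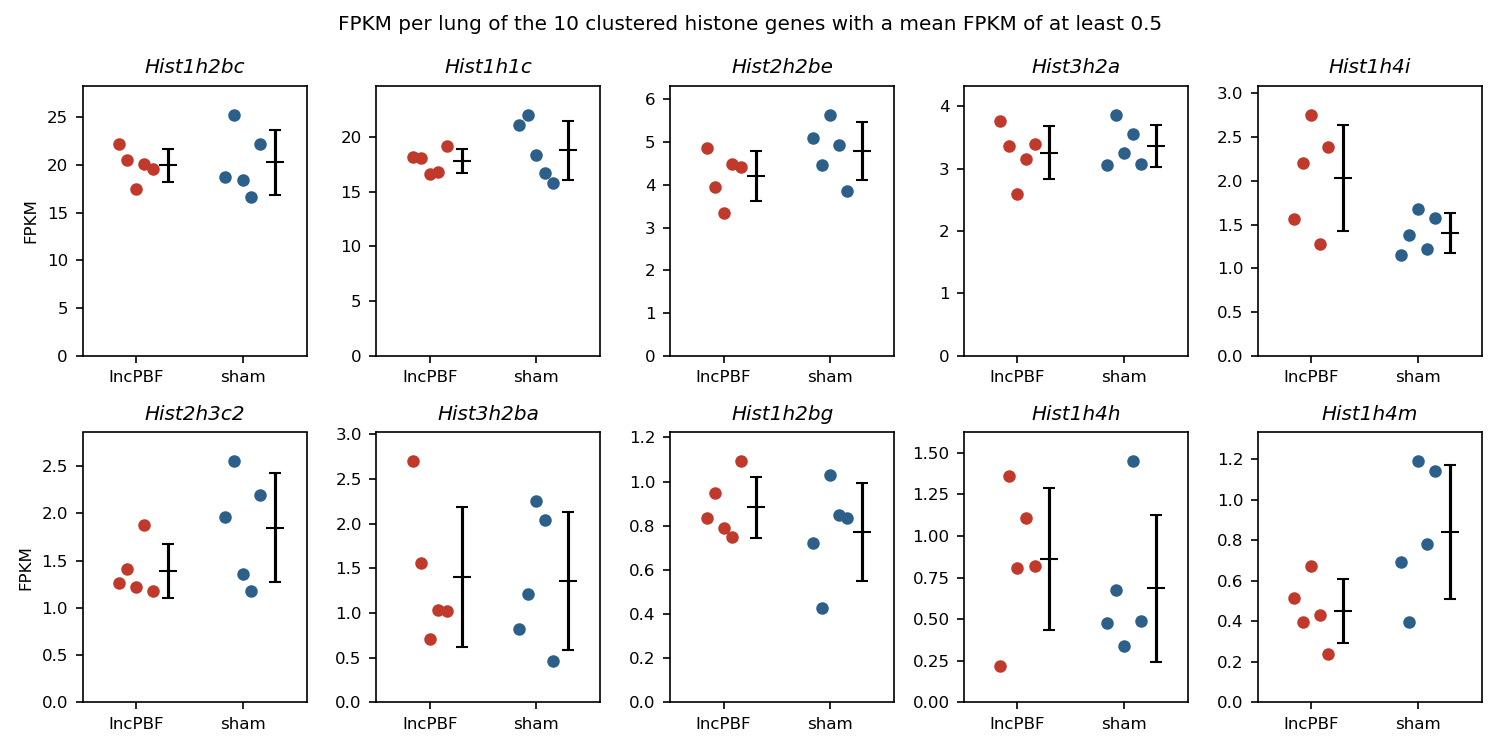
FPKM (y axis, from 0) in each of the 5 IncPBF and 5 sham lungs for the 10 genes tested, with the mean and SD beside the points. The points are drawn in the order of lungs 1 to 5. The groups overlap in each of the 10 panels. In Hist1h4i, 3 IncPBF lungs are above all sham lungs, and in Hist1h4m, 4 sham lungs are above all IncPBF lungs.

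The 57 genes under the minimum were not tested in that fit. Their sum, on the scale of the sum above, was 6.26 to 7.60 fragments in IncPBF and 5.49 to 7.22 in sham. When every gene above 0 in at least 1 lung was fitted, 58 clustered histone genes entered. In limma, 0 of them passed an adjusted p of 0.05, against 13.4% of the 31400 genes in that fit, and 5 passed an unadjusted p of 0.05, against 25.1%. The following genes were picked after their values were seen. The smallest p was that of Hist1h1b, encoding H1.5, with 1, 2, 4, 1 and 8 fragments in IncPBF lungs 1 to 5 and 0, 0, 0, 2 and 0 in sham lungs 1 to 5. Its fragments were in 5 of 5 IncPBF lungs and 1 of 5 sham lungs (log2 fold change 1.24, SE 0.40, adjusted p = 0.0683 by limma). Hist1h1d, encoding H1.3, had 43 fragments in IncPBF and 13 in sham, of which 9 were in sham lung 5 (adjusted p = 0.107). Hist2h4, an H4 gene, had 15 fragments in IncPBF and 36 in sham (log2 fold change -0.82, adjusted p = 0.189). Hist1h1a, encoding H1.1, had 1 fragment in IncPBF and 10 in sham (adjusted p = 0.235). At counts this low, differences of a few fragments were not detectable.

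Genes that work with or beside the clustered histones were taken from lists. Of all genes tested, 16.1% rose in IncPBF and 16.2% fell. Of 11 replacement histone genes tested, 8 rose, 0 fell and 3 did not pass (median log2 fold change 0.27). H2afz, which encodes H2A.Z, was at 75.6 to 80.7 FPKM in IncPBF and at 43.9 to 63.4 FPKM in sham, a log2 fold change of 0.56 (SE 0.09, adjusted p = 8.2e-04 by limma). H2afx, whose protein H2A.X is phosphorylated at DNA breaks, rose by 0.63, and H2afy2, a macroH2A gene, rose by 0.68. Cenpa, the H3 of centromeres, rose by 0.80 (adjusted p = 5.06e-04 by limma) and H1fx, a linker histone, by 0.78. The groups were separated for H2afz, H2afx, H2afy2 and Cenpa and overlapped for H1fx.

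Of the genes for histone transcription and mRNA processing, 7 of 19 rose, 0 fell and 12 did not pass (median log2 fold change 0.15). The share called in either direction was near the 32.3% of all genes tested, of which 16.1% rose and 16.2% fell. Slbp, whose protein binds the stem-loops shown above, was at 7.13 to 8.04 FPKM in IncPBF and at 5.14 to 6.00 FPKM in sham. The groups did not overlap, and the log2 fold change was 0.44 (SE 0.06, adjusted p = 2.65e-04 by limma). Ccne1 (0.85) and Ccne2 (0.77), the cyclins E that act on the histone gene activator NPAT with CDK2, E2f1 (0.52) and Ncbp2 (0.24), a subunit of the cap-binding complex, rose too. Npat itself did not pass (log2 fold change -0.07, adjusted p = 0.544 by limma) and was named after its value was seen. Of 18 histone chaperone genes, 9 rose, 1 fell and 8 did not pass (median 0.28). Asf1b and Chaf1b, which help to place new H3 and H4 on replicating DNA, rose by 0.95 and 0.81, Rbbp7 by 0.31, Nasp, a chaperone of stored histones, by 0.40, and Npm1 by 0.39.

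S phase genes rose in 23 of 24 cases (median log2 fold change 0.61), among them Uhrf1 (1.03), Rrm1 (0.47) and Mcm2 (0.64). G2/M genes rose in 14 of 14 cases (median 0.97), among them Cdk1 (1.31), Birc5 (1.23) and Ccna2 (1.13). When the log2 Xist level was added to the model, 4 of the 24 and 3 of the 14 passed, against 741 of all 15388 genes. Log2 fold changes stayed above 0 in 23 of the 24 and 14 of the 14, with medians of 0.50 and 0.82. In that model 1 of 11 replacement histone genes, 1 of 19 genes for transcription and processing (with 1 other falling) and 1 of 18 chaperone genes rose. The directions of these lists were the same under each scaling of the lungs tried. Smooth muscle genes moved with the groups as well, with 4 of 8 rising and 0 falling in limma. Their sum was 321 to 618 FPKM in IncPBF and 119 to 255 FPKM in sham, none of the 8 was at 0, and 0 passed with the Xist level in the model. Of the erythroid genes, 5 of 7 fell (1 with the Xist level in the model), their sum was 253 to 1931 FPKM in IncPBF and 1466 to 2450 FPKM in sham, and none of the 7 was at 0. The part of both lists in these differences was not tested. Nor was the difference between the clustered histone genes and the lists.

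Whether the libraries were made from poly(A)-selected or from rRNA-depleted RNA is not given in the sources used here. Of 12 abundant RNAs without a poly(A) tail, 7 were listed at 0 in all lungs, among them Rmrp, Rpph1 and Rn7s1. The sum of the 12 was 1.98 to 2.51 FPKM in IncPBF and 1.08 to 2.06 FPKM in sham, and the 1 gene tested, Rn7sk, had an adjusted p of 0.0820 (limma, log2 fold change 0.91). How far the low levels of the clustered histone genes depend on the capture of RNA without a tail was not tested.

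**Figure D4:**
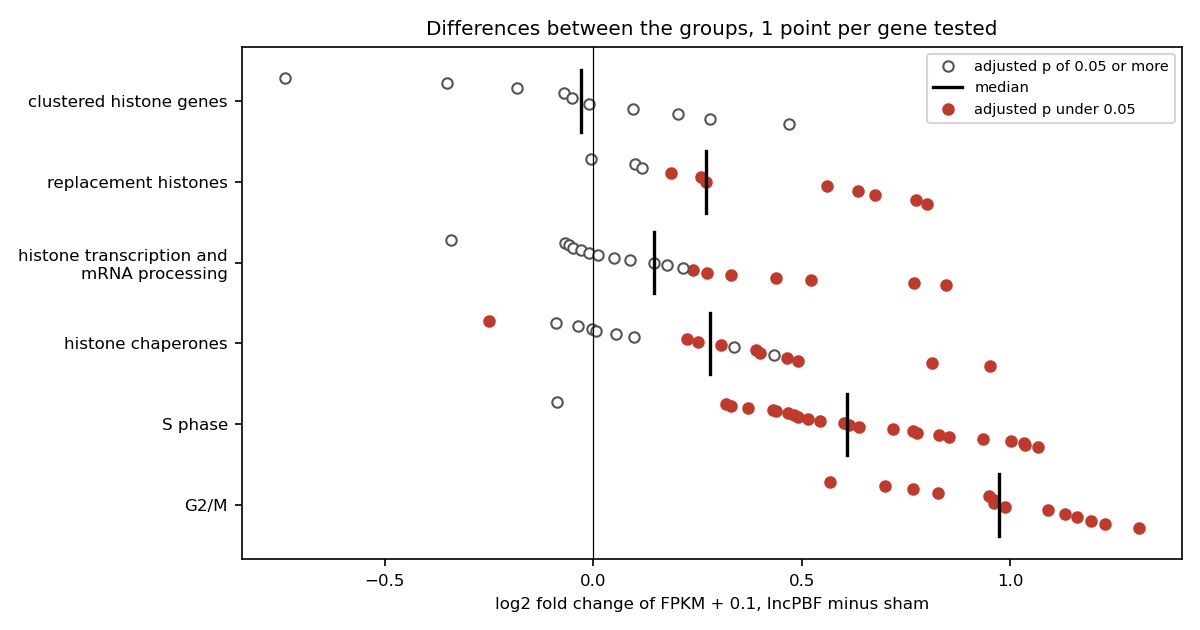
Log2 fold change of FPKM + 0.1, IncPBF minus sham (x axis), of each gene tested in 6 lists (y axis), with filled points for an adjusted p under 0.05 in limma and a bar at the median. The clustered histone genes have 0 filled points of 10 and a median of -0.03, the S phase genes 23 of 24 and 0.61, and the G2/M genes 14 of 14 and 0.97.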

How the data were processed

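The authors sequenced NEBNext libraries of total lung RNA on a NovaSeq instrument and deposited FPKM per gene with the gene length in bases. The submitters' processing notes name Bowtie 0.12.2 and the builds GRCm38, mm10 and hg38 without a role. The counting software and its strand setting are not given in the sources used here. In the table the IncPBF columns are abbreviated in another way than in the titles, and were matched by age and number.

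Multiplied by gene length, 100% of the FPKM values in a lung were whole multiples of a smallest value (tolerance 0.01), which gave back the fragments. Genes with a mean of at least 0.5 FPKM entered limma 3.58.1 under R 4.3.3 as log2(FPKM + 0.1), with lmFit and then eBayes with a trend. The 5 IncPBF lungs were compared with the 5 sham lungs without covariates, and Benjamini-Hochberg adjustment was over all 15388 genes. A log2 fold change is on the scale of log2(FPKM + 0.1) and understates changes of low genes. Sums of fragments were divided by the library size that each lung's FPKM imply, times 1000000. That size was below the fragments on genes in sham lungs 1, 2 and 5, so it is not a plain count of fragments. Single values were also compared by exact permutation of unlogged FPKM. Sequences and coordinates are those of GENCODE M21 (GRCm38), where all 67 genes have the coordinates of the table. The test was also run on simulated data, with no outcome given here. Python 3.11.15, pandas 2.3.3 and matplotlib 3.10.9 were used.

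The members and lists were chosen with earlier results of these data known. Genes named by rule are members past the adjusted threshold, the 5 highest, the highest per family, testis members, those next to the minimum, and the 5 (cell cycle and RNAs without a tail: 3) smallest p per list. Alternatives were the pseudocount (1 or 0.01), the filter (1 FPKM or none), quantile normalization, equal totals, median centring, the replicate number as a block, log2 Xist as a covariate, no trend, limma-voom on recovered fragments, a correction for gene length and GC content, and each lung left out. Closest in counts were IncPBF lungs 2 and 5, with a chi-square per gene of 6.40, so each lung counted as 1 sample.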

Additional observations from a re-analysis of the deposited data

How the results depend on the processing

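The count of clustered histone genes past an adjusted p of 0.05 was 0 in most settings. It was 1 higher gene, Hist1h4i, with an equal total per lung (log2 fold change 0.54, adjusted p = 0.0495 by limma) and with the replicate block (0.47, adjusted p = 0.0251). It was 1 lower gene, Hist1h4m, with quantile normalization (-0.89, adjusted p = 0.0418) and with the gene length and GC correction (-0.90, adjusted p = 0.0375). With 1 lung left out, each of these counts ran from 0 to 1, the median log2 fold change from -0.10 to 0.03, and all genes past the threshold from 3869 to 5234. The 1 came without IncPBF lung 4 for Hist1h4i and without sham lung 2 for Hist1h4m. The median of the 10 genes tested was -0.03, but 0.0640 with log2 Xist as a covariate. It was -0.13 with the length and GC correction, with or without the replicate block. Without a filter the median was 0.0636, but over 58 genes, and the log2 fold changes of the 10 were unchanged. The Xist covariate left 741 of all genes past the threshold, against 4970. The equal total moved the median over all genes from 0.01 to 0.09, and that of the clustered histone genes tested from -0.03 to 0.05.

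Of 227 values of single genes under the alternatives, 209 kept their sign and 6 passed the threshold. Signs changed for values past no threshold. Hist1h2bc became 0.0697 with an equal total, 0.0062 with quantile normalization and 0.17 with the Xist covariate (-0.0766 to 0.0732 with a lung left out). Hist1h1c became 0.0097 with an equal total, and Hist2h2be 0.0072 with the Xist covariate. Hist3h2a became 0.0275 with an equal total and 0.17 with the Xist covariate (-0.10 to 0.0260 with a lung left out). Hist1h4h became -1.09 with the Xist covariate. Hist3h2ba became -0.0073 with quantile normalization and -0.0461 with the length and GC correction, with or without the block (-0.20 to 0.31 with a lung left out). With a lung left out, Hist1h4h ran from 0.09 to 0.64, Hist1h2bg from 0.03 to 0.31, Hist2h2be from -0.26 to -0.11 and Hist2h3c2 from -0.49 to -0.23, past no threshold. The cause of these changes was not tested.

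Lungs with the same number did not deviate together (correlations from -0.07 to 0.09), so the numbers were not taken as pairs, and 2 of 5 IncPBF lungs correlated best with the sham lung of their number. The replicate block gave 4872 genes past the threshold, against 4970. Low depth limits the genes under 0.5 FPKM, of which 30 had 3 fragments or fewer in every lung.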
